A study of Homo sapiens with 37 samples.

Results

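The 46 genes described here encode the machinery that copies DNA and its supply: 12 origin licensing factors, 5 helicase activation factors, 8 polymerase and primase subunits, 9 clamp, clamp loader and single-strand binding proteins, 2 enzymes of Okazaki fragment maturation, 5 enzymes of nucleotide supply, and 5 E2F or cyclin E genes. They were listed by name from textbook roles, with earlier results of these data known, and were matched by Ensembl identifier in a table of 32055 genes. All 46 were in the table and all 46 passed the filter on low counts. K562 is an established human line from a chronic myeloid leukemia in blast crisis, often used as a model of erythroid differentiation, and it divides continuously. It was electroporated with px458, a plasmid that encodes Cas9 and GFP, either with 1 of 2 gRNAs against the zinc finger transcription factor ZBTB7A (the group labelled KO) or with no gRNA (the group labelled Control), and GFP-positive cells were sorted singly and grown as clones. The series held 26 KO and 11 control libraries of bulk SCRB-seq, in which reverse transcription starts from the poly(A) tail, every cDNA carries a random tag (the unique molecular identifier, or UMI), and the 3′ end of the transcript is read. Neither the clone nor the gRNA nor any replicate number is given in the labels, so the p-values measure the spread between these libraries, which may in part be technical, and libraries of the same clone cannot be told from libraries of different clones. Libraries are numbered here within their group in accession order, which only names them.

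In cycling cells the origin recognition complex, CDC6 and CDT1 load the ring of MCM2 to MCM7 onto DNA before S phase, and geminin (GMNN) prevents loading afterwards. At the start of S phase CDC45 and the GINS complex join the ring and make it an active helicase. Polymerase alpha with its primase lays down primers, polymerases epsilon and delta extend them on the PCNA clamp that RFC loads, RPA covers the exposed single strands, and FEN1 and LIG1 join the Okazaki fragments. E2F transcription factors and cyclin E with CDK2 drive entry into S phase, and many of these genes are E2F targets whose RNA is highest around that entry. A bulk library averages over all phases of the cycle, and fewer cells in S phase and less RNA per cell cannot be told apart.

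Because E2F binding is the textbook input to this gene group, the promoters of the members were searched for the E2F-type cores TTGGCGC and TTCCCGC and for the box CCAAT, on both strands. Promoters were RefSeq windows from 250 bases before to 50 bases after the start of the gene (GRCh38.p14), and 38 of the 46 members had an entry (MCM4, MCM5, GINS4, POLD3, RPA2, RPA3, CCNE2 and CDK2 had none). Either core was found in 24 of the 38 windows (63.2%) and in 9.23% of all 35116 windows. The box CCAAT was found in 52.6% of the member windows and in 34.6% of all windows. The set of all windows was not matched to the member windows in base composition. A core was found in 4 of 8 windows of members that were higher in the KO libraries, in 1 of 2 windows of members that were lower and in 19 of 28 windows of the others. The windows of TYMS and GINS1, which were higher in the KO libraries, and of POLA1, which was lower, are shown because they are the members with the largest such differences that have both an entry and a core. All 3 are on the plus strand, at chr18:657403-657702, chr20:25407423-25407722 and chrX:24693668-24693967, with E2F-type cores and CCAAT boxes in capitals on whichever strand they lie.
TYMS: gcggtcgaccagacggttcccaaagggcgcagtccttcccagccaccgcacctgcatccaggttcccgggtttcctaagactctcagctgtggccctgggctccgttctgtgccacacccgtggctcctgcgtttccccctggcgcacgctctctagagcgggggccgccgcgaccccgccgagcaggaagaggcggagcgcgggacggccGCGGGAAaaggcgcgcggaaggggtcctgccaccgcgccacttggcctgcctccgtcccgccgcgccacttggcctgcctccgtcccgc
GINS1: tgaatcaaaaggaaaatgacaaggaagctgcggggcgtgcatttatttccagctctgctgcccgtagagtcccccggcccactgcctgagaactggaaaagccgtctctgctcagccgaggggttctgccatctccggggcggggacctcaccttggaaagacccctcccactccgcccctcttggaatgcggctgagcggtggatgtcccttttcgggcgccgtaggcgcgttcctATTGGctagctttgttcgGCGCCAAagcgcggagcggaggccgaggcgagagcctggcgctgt
POLA1: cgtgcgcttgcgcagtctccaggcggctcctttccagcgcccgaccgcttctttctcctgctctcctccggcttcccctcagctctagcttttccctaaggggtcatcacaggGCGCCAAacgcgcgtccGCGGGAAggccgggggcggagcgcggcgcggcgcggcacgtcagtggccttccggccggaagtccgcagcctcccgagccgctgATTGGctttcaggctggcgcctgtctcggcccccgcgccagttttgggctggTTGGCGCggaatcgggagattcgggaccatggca
The TYMS window holds 1 core, read on the opposite strand, and no CCAAT. The GINS1 window holds 1 core and 1 CCAAT box, and the POLA1 window 3 cores and 1 CCAAT box. A match is a description of these letters and not a measured binding site.

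Total UMIs were 1070250 to 4270901 in the KO libraries and 563235 to 4710809 in the control libraries, where the shallowest was control library 7. The members took 0.674% to 0.853% of all UMIs in the KO libraries and 0.654% to 0.726% in the control libraries. Mitochondrial genes took 4.63% to 8.09% and 5.05% to 6.95%. The summed level of 12 tested erythroid markers of K562 was 3024 to 9754 CPM in the KO and 4104 to 8691 CPM in the control libraries. Of 9 lymphoid, monocyte, stromal and epithelial markers in the table, CD3D and EPCAM alone passed the filter on low counts, and both were lower in the KO libraries (log2 fold changes -1.85 and -0.75, edgeR adjusted p = 4.1e-06 and 1.4e-08). The summed level was 2.10 to 31.1 against 17.4 to 74.4 CPM for the 5 lymphoid and monocyte markers and 98.9 to 214 against 165 to 282 CPM for the 4 stromal and epithelial ones. All 32055 genes had a UMI in some library, so none of the markers counted here could be at 0 over all libraries. CD3E and CD14 had 2 and 7 UMIs over all KO and 4 and 5 over all control libraries. The part of these markers in the results below was not tested. The log2 fold change of ZBTB7A was 0.12 (SE 0.09, edgeR adjusted p = 0.331), which does not check the labels because 3′ reads do not show whether the coding sequence is edited. KO library 18 lay closest to the control libraries over all genes, with 10.9% of tested genes above and 11.2% below the control range against up to 23.4% and 24.4% in other KO libraries. Without it 10 members were still higher and 2 lower.

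Of the 46 members, 10 were higher and 2 were lower in the KO than in the control libraries (edgeR quasi-likelihood test, Benjamini-Hochberg adjusted p below 0.05). The share that passed in either direction, 26.1%, was below the 33.8% of all 10661 tested genes, of which 17.7% were higher and 16.2% lower. No member was called in the stricter sense that also asks for an absolute log2 fold change above 0.5, which 10.2% of all tested genes met (6.65% higher and 3.53% lower). With only genes averaging 10 CPM or more kept, 7.82% of the genes tested met it. At an unadjusted p below 0.05 with that fold change the count of members was also 0, and DESeq2 and limma-voom also called 0. With the libraries scaled by their totals alone, 15 members were higher and 2 lower, and 62.9% of all genes that passed were higher, against 52.2% with TMM scaling. The median log2 fold change was 0.09 over the members and -0.0046 over all tested genes, and 30 of the 46 members had a value above 0. The spread of the differences was narrow: 45 of the 46 members had an absolute log2 fold change below 0.3, and among the 34 members that did not pass, from -0.13 for RFC3 to 0.20 for E2F1, 30 had a 95% interval that lay within 0.3 of zero.

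**Figure D1:**
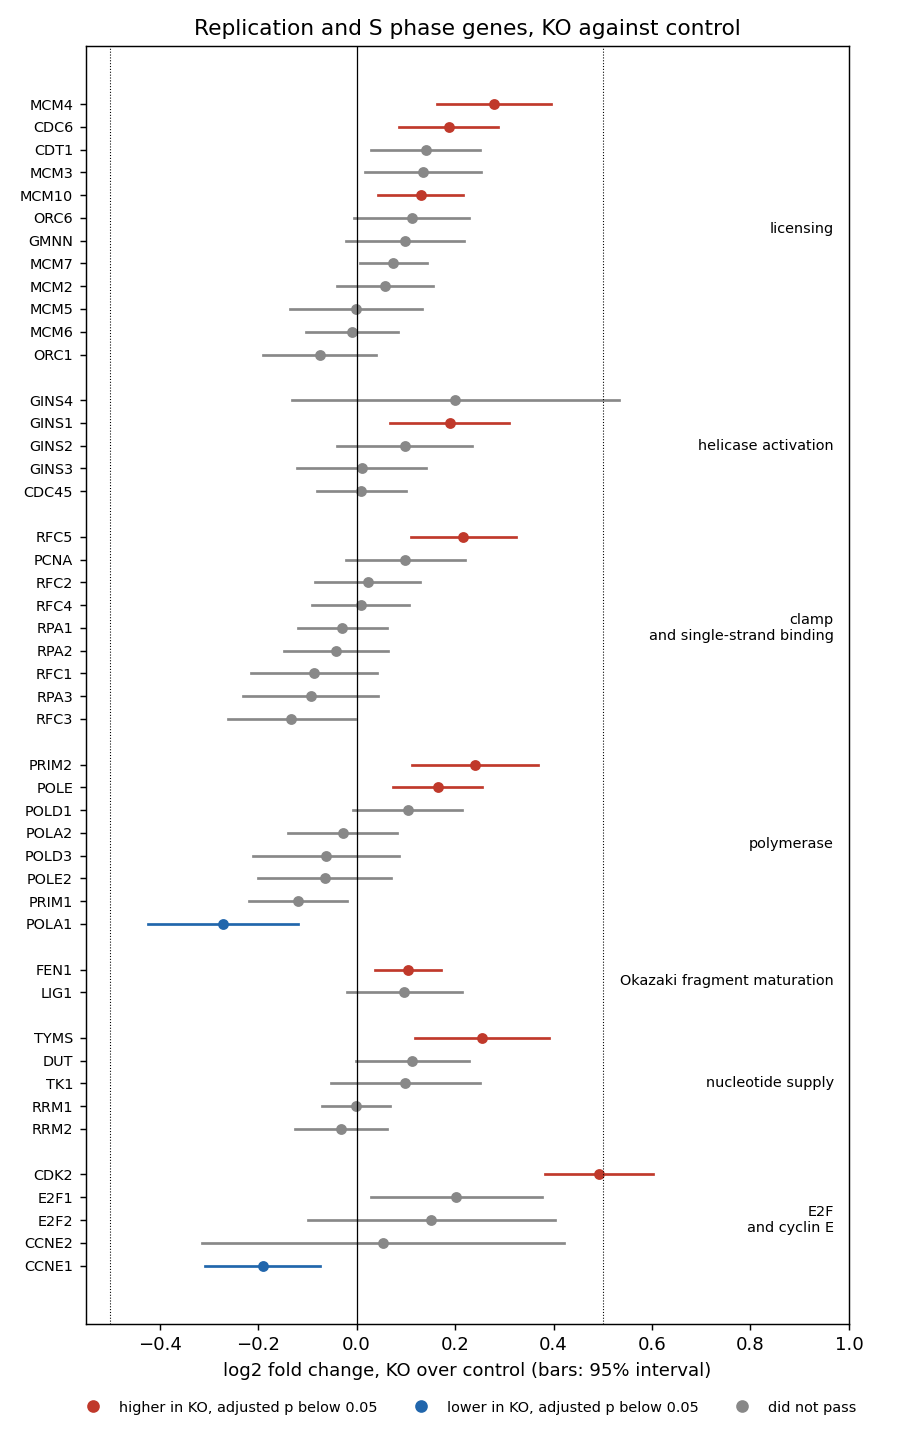
Log2 fold change of each of the 46 genes, KO over control, with its 95% interval as bars (26 KO and 11 control libraries), grouped by role; dotted lines mark 0.5 in either direction. CDK2 at 0.49 stands to the right of every other gene, POLA1 at -0.27 is the lowest, and the intervals of 34 genes belong to values that did not pass.

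The largest difference was in CDK2, the kinase that cyclin E activates at S phase entry (chr12:55966781-55972789, GRCh38, plus strand). Its level ran from 5.88 to 6.19 log2 CPM with a median of 6.07 in the control libraries and from 6.30 to 6.85 with a median of 6.47 in the KO libraries. Every KO library lay above the highest control, including KO library 18 at 6.41, and the groups did not overlap. Among all tested genes 0.169% had every KO library above the highest control, and CDK2 was the only member among them. The mean was 6.04 ± 0.11 (SD, n = 11) among controls and 6.52 ± 0.16 (SD, n = 26) among KO libraries, which made a log2 fold change of 0.49 (SE 0.06, edgeR adjusted p = 6.9e-09), or 1.41-fold. Counts of 40 to 309 UMIs per control and 104 to 364 per KO library stood behind these levels. The value sat at the 0.5 threshold: it was 0.48 to 0.51 when each library in turn was left out, and it passed 0.5 without KO library 1, 9, 14, 16, 17 or 21 or without control library 3, 4, 5, 8 or 11. CDK2 shares 89 exon bases with PMEL on the opposite strand, 1022 bases from its 3′ end, and PMEL had 92 UMIs over all libraries against 7581 for CDK2.

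CCNE1, which encodes the cyclin E1 that activates CDK2, was among the 2 members that were lower (chr19:29811991-29824312, plus strand). The control libraries ran from 5.78 to 6.20 log2 CPM with a median of 6.01 and the KO libraries from 5.40 to 6.11 with a median of 5.80. In 12 KO libraries the level was below the lowest control and in none above the highest, and KO library 18 at 6.11 was the highest KO library. The mean fell from 5.97 ± 0.12 (SD, n = 11) to 5.77 ± 0.18 (SD, n = 26), a log2 fold change of -0.19 (SE 0.06, edgeR adjusted p = 0.011). Because CDK2 and CCNE1 differed in opposite directions, their ratio within each library was taken after these values were seen and is given without a test. The log2 ratio of CCNE1 to CDK2 counts was -0.06 ± 0.13 (SD, n = 11) among controls and -0.75 ± 0.26 (SD, n = 26) among KO libraries, with ranges of -0.23 to 0.13 and -1.42 to -0.30. All 26 KO libraries lay below the lowest control in this ratio, which does not depend on the scaling of the libraries. CDK2 alone already separated the groups, and CCNE1 was chosen as lower in KO, so this separation follows largely from those values.

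The other members of this role did not pass. E2F1, an activating E2F factor, ran from 4.44 to 5.20 log2 CPM (median 4.88) in control and from 4.64 to 5.56 (median 5.05) in KO libraries, with 7 KO libraries above the control range. Its log2 fold change was 0.20 (SE 0.09, edgeR adjusted p = 0.072), and it passed without KO library 15, 16 or 19 (0.22 each) or control library 6 (0.25) or 9 (0.24). E2F2, a further activating factor, ran from 4.37 to 5.27 (median 4.69) in control and from 4.23 to 5.67 (median 4.65) in KO libraries, on both sides of the control range, with a log2 fold change of 0.15 (SE 0.13, edgeR adjusted p = 0.38). CCNE2, for cyclin E2, had the lowest counts of the members at 2 to 26 UMIs per library, and its range of 1.57 to 2.96 (median 2.35) in control and 1.06 to 3.20 (median 2.31) in KO libraries gave a log2 fold change of 0.05 (SE 0.19, edgeR adjusted p = 0.87). At these counts a difference in CCNE2 of the size seen in CCNE1 was not detectable, since its 95% interval ran from -0.31 to 0.42. CCNE2 shares 1629 exon bases with INTS8 on the opposite strand, 348 bases from its 3′ end. INTS8 had 3291 UMIs over all libraries against 415 for CCNE2. The part of this overlap in the low count of CCNE2 was not tested.

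**Figure D2:**
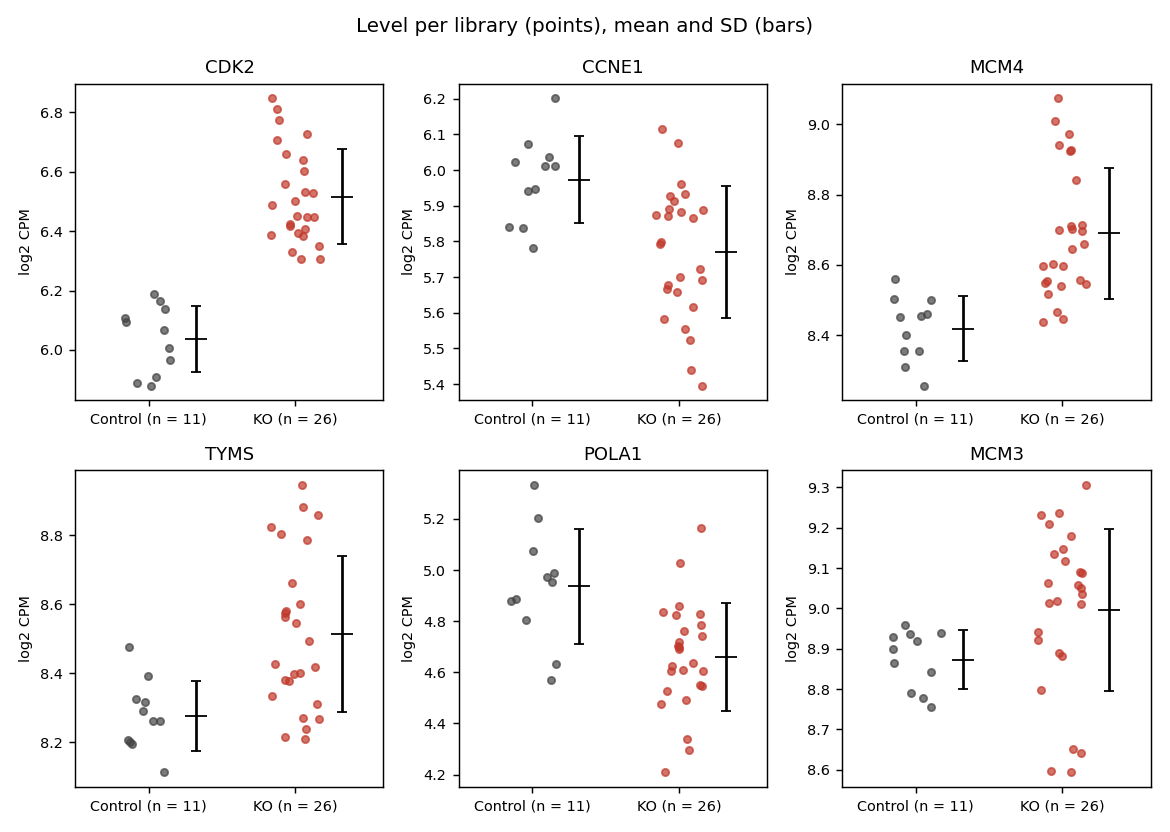
Level of 6 members in each library in log2 CPM, control in grey (n = 11) and KO in red (n = 26), with the mean and SD of each group as bars; the vertical axes do not start at 0. CDK2 shows no overlap between the groups, CCNE1 and POLA1 lie lower in KO, MCM4 and TYMS lie higher with overlap, and MCM3 has KO libraries on both sides of the control range.

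Among the 12 licensing factors, MCM4, CDC6 and MCM10 were higher and 9 did not pass. MCM4, a subunit of the helicase ring, had the largest difference of this role (chr8:47960185-47978160, plus strand). It ran from 8.26 to 8.56 log2 CPM (median 8.45) in control and from 8.44 to 9.08 (median 8.65) in KO libraries, and 17 of the 26 KO libraries were above every control. The mean was 8.42 ± 0.09 (SD, n = 11) and 8.69 ± 0.19 (SD, n = 26), a log2 fold change of 0.28 (SE 0.06, edgeR adjusted p = 2.9e-04), or 21.4% more. KO library 18 at 8.44 was the lowest KO library for this gene. KO libraries 4, 5, 10, 22, 24 and 25 were the highest, at 8.92 to 9.08, and the next KO library was at 8.84. The same libraries were the highest for TYMS, at 8.785 to 8.946 with the next at 8.66. They were also the lowest KO libraries for RFC1, at 6.29 to 6.49 with the next at 6.56. These libraries were named after their values were seen. Whether they share a clone is not given, and a fit without all of them was not run. CDC6, which loads the ring, rose by 0.19 on the log2 scale (SE 0.05, edgeR adjusted p = 0.0041) with 14 KO libraries above and 1 below the control range. MCM10 acts in helicase activation at licensed origins and is counted here with licensing. It rose by 0.13 (SE 0.04, edgeR adjusted p = 0.019) with 11 KO libraries above the control range. The pass of MCM10 was lost with no filter on low counts (adjusted p = 0.19) and after all libraries were thinned to the smallest total (adjusted p = 0.20).

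The other 5 subunits of the ring did not pass. MCM2 ran from 6.87 to 7.15 log2 CPM (median 6.97) in control and from 6.75 to 7.31 (median 7.03) in KO libraries, with a log2 fold change of 0.06 (SE 0.05, edgeR adjusted p = 0.39). MCM7 ran from 8.77 to 8.99 (median 8.91) in control and from 8.83 to 9.15 (median 8.95) in KO libraries, with 10 KO libraries above the control range and a log2 fold change of 0.07 (SE 0.03, edgeR adjusted p = 0.090). MCM7 passed in 6 of the 13 alternatives that did not leave out each library in turn, with adjusted p-values from 0.013 (library size alone) to 0.41 over the 13, and its value was 0.13 after thinning to the smallest total. The fold changes of MCM5 and MCM6 were -0.0016 and -0.0098. In the ratio of MCM4 to MCM6 counts within each library, 0.26 ± 0.10 (SD, n = 11) among controls and 0.55 ± 0.28 (SD, n = 26) among KO libraries on the log2 scale, 16 KO libraries lay above the highest control. For MCM4 to MCM5 the ratio was 2.32 ± 0.10 (SD, n = 11) and 2.59 ± 0.18 (SD, n = 26), with 18 KO libraries above. These ratios were chosen after the values were seen and were not tested.

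Of the remaining licensing factors, CDT1, which brings the ring to the origin, had a log2 fold change of 0.14 (edgeR adjusted p = 0.0503) with 14 KO libraries above the control range, and it passed, at 0.14 to 0.16, without control library 2, 4, 6 or 10 or without KO library 6, 7, 8, 9, 12, 15, 16, 17, 19, 20, 21, 23 or 26. GMNN, the inhibitor of CDT1, had 0.10 (edgeR adjusted p = 0.22), and the ratio of CDT1 to GMNN was 0.04 ± 0.15 (SD, n = 11) among controls and 0.08 ± 0.19 (SD, n = 26) among KO libraries. The origin recognition subunits ORC1 and ORC6 had -0.08 and 0.11 and did not pass.

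MCM3, a further subunit of the ring, spread widely among the KO libraries. Its control libraries were tight, at 8.76 to 8.96 log2 CPM with an SD of 0.07, while the KO libraries ran from 8.59 to 9.31 with an SD of 0.20. Here 17 KO libraries were above the highest control and 4 (KO libraries 8, 11, 12 and 20) were below the lowest. The log2 fold change was 0.13 (SE 0.06, edgeR adjusted p = 0.077) and did not pass. It passed when any of those 4 libraries was left out, with a value of 0.15 in each case. MCM3 also passed in 6 of the 13 alternatives that did not leave out each library in turn, with values from 0.13 to 0.23 over the 13. All 12 KO libraries above the control range for DUT, all 9 for PCNA, all 13 for GMNN and all 4 for GINS2 were among the 17 above it for MCM3. Of the KO libraries below the control range, 3 of 9 for GINS2, 2 of 5 for DUT, 2 of 4 for PCNA and 0 of 1 for GMNN were among the 4 low ones for MCM3. Because MCM3 had 17 high but 4 low KO libraries, the shares on the high and low sides cannot be compared. MCM3, DUT, PCNA, GMNN and GINS2 were named for this overlap after their values were seen, and the libraries share their depth and scaling between genes, so it is given as a description.

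A wider spread in the KO libraries was seen for most members. The SD over KO libraries was larger than that over control libraries in 40 of 46 members (87.0%) against 72.2% of all tested genes, and the median SD of the members was 0.18 in KO and 0.12 in control libraries (0.27 and 0.21 over all tested genes). For 25 members (54.3%) the KO libraries reached beyond the control range on both sides, against 42.3% of all tested genes. A range over 11 control libraries is more easily exceeded by 26 KO libraries. The KO libraries also held fewer UMIs of the members, with a median of 15378 against 23915 per control library. The part of this depth in the wider spread was not tested. Counted per library, the number of members above the highest control ran from 1 in KO library 23 to 25 in KO library 25 with a median of 11, and the number below the lowest control from 1 in KO libraries 1, 3, 13 and 26 to 18 in KO library 8 with a median of 5. Of all tested genes, 10.9% to 23.4% per KO library (median 16.9%) were above the highest control and 11.2% to 24.4% (median 16.5%) below the lowest. The median difference of the members from the control mean ran from -0.10 in KO library 11 to 0.23 in KO library 25, and from -0.07 to 0.07 among the control libraries. In KO library 18 10 members were above and 5 below the control range.

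**Figure D3:**
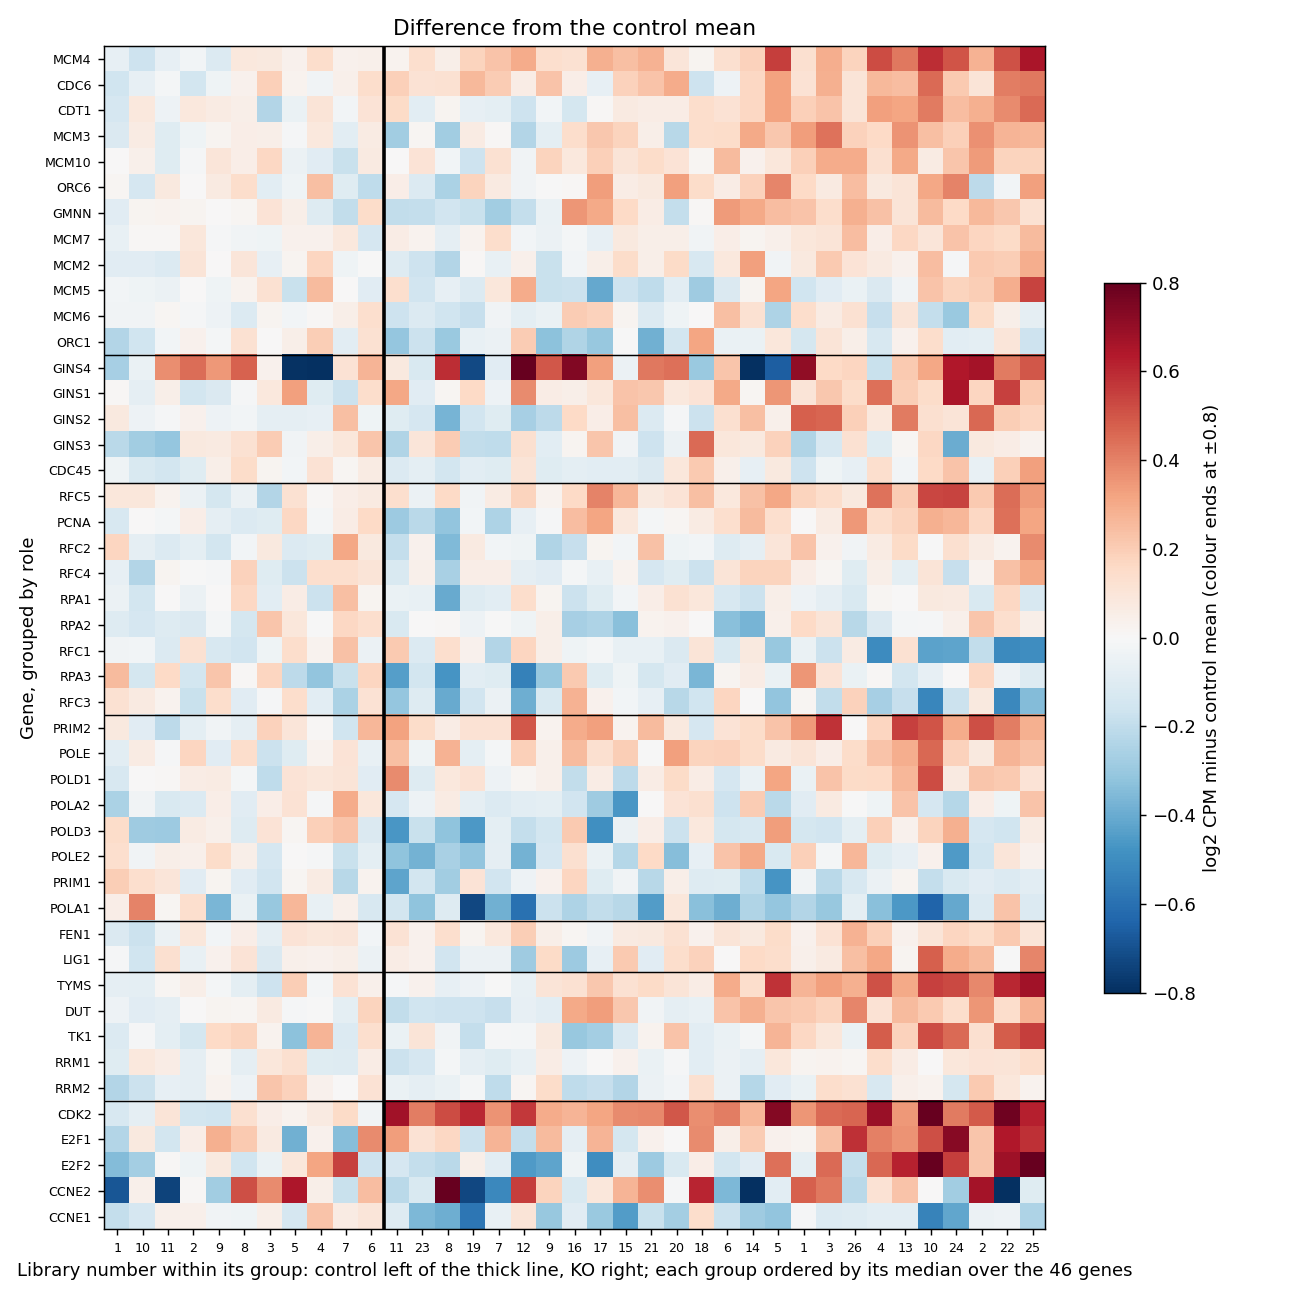
Difference of each gene from its control mean in log2 CPM for each library (blue lower, red higher, colours end at 0.8 in either direction), with genes in rows by role and libraries in columns, control left and KO right of the thick line. The CDK2 row is red in all 26 KO columns, and KO columns run from a median difference of -0.10 at the left to 0.23 at the right.

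The groups differed in the base composition of the well barcodes: AT-rich barcodes marked 12 of the KO and 8 of the control group, and GC-rich barcodes marked 12 of the KO group but 1 of the control group. The median difference of the members was 0.11 over the AT-rich and 0.0020 over the GC-rich KO libraries. Among AT-rich barcodes alone 15 members were higher and 2 lower. MCM3 (log2 fold change 0.23), CDT1 (0.23), GMNN (0.20), PCNA (0.19), DUT (0.20), E2F1 (0.32) and RFC1 (-0.21) then passed, while POLE (0.10, edgeR adjusted p = 0.21) and CCNE1 (-0.17, edgeR adjusted p = 0.056) no longer did. CDK2 was 0.51 there, MCM4 0.35 and TYMS 0.43, against 0.49, 0.28 and 0.26 over all libraries. Of the KO libraries highest for MCM4 and TYMS, libraries 4, 5, 22, 24 and 25 had AT-rich barcodes and library 10 a GC-rich barcode. The part of these libraries in the larger AT-rich values was not tested. GC-rich barcodes held too few control libraries for a value with an error.

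In helicase activation, where MCM10 was not counted, 1 of 5 genes was higher. GINS1, a subunit of the GINS complex (chr20:25391008-25452700, plus strand), rose by 0.19 on the log2 scale (SE 0.06, edgeR adjusted p = 0.015) with 5 KO libraries above the control range, and did not pass with no filter on low counts (adjusted p = 0.065). It shares 259 exon bases with NINL on the opposite strand at its 3′ end, and NINL had a log2 fold change of 0.02. The other GINS subunits had 0.10 (GINS2), 0.01 (GINS3) and 0.20 (GINS4, with 4 to 46 UMIs per library), and CDC45, their partner on the helicase, had 0.0093. None of these 4 passed.

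The polymerase subunits differed in both directions, with PRIM2 and POLE higher, POLA1 lower and 5 of 8 not passing. POLA1, the catalytic subunit of polymerase alpha (chrX:24693873-24996986, plus strand), ran from 4.57 to 5.33 log2 CPM (median 4.95) in control and from 4.21 to 5.16 (median 4.66) in KO libraries, and 8 KO libraries were below every control. The mean fell from 4.94 ± 0.22 (SD, n = 11) to 4.66 ± 0.21 (SD, n = 26), a log2 fold change of -0.27 (SE 0.08, edgeR adjusted p = 0.0063), on 17 to 137 UMIs per control and 21 to 105 per KO library. PRIM2, the large primase subunit that travels with POLA1 (chr6:57314805-57646850, plus strand), moved the other way. It ran from 5.63 to 6.10 (median 5.81) in control and from 5.70 to 6.41 (median 6.08) in KO libraries, with 12 KO libraries above the control range, a mean of 5.84 ± 0.14 (SD, n = 11) against 6.08 ± 0.19 (SD, n = 26) and a log2 fold change of 0.24 (SE 0.07, edgeR adjusted p = 0.0039).

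The 2 other subunits of this complex, POLA2 and the catalytic primase subunit PRIM1, had log2 fold changes of -0.03 and -0.12 (edgeR adjusted p = 0.84 and 0.068). PRIM1 passed when control library 3 or 7 or KO library 16 was left out, at -0.13 in each case. It shares 139 exon bases with NACA on the same strand, 1052 bases from its 3′ end. NACA had 81696 UMIs over all libraries against 7285 for PRIM1, and a log2 fold change of -0.08 (edgeR adjusted p = 0.073). The part of this overlap in the values of PRIM1 was not tested. The ratio of POLA1 to PRIM2 counts was -0.91 ± 0.31 (SD, n = 11) among controls and -1.44 ± 0.31 (SD, n = 26) among KO libraries, with 15 KO libraries below the lowest control. The ratio of PRIM1 to PRIM2 was 0.50 ± 0.19 (SD, n = 11) and 0.15 ± 0.25 (SD, n = 26), with 14 below. Both pairs were named after their values were seen.

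POLE, the catalytic subunit of leading strand polymerase epsilon, rose by 0.16 on the log2 scale (SE 0.05, edgeR adjusted p = 0.0054) with 14 KO libraries above and none below the control range. Its partner POLE2 had -0.06, and the polymerase delta subunits POLD1 and POLD3 had 0.10 and -0.06. None of these 3 passed. With the libraries thinned to the smallest total, POLA1 (-0.19, edgeR adjusted p = 0.38), POLE (0.19, 0.067), RFC5 (0.20, 0.057), FEN1 (0.05, 0.62) and CCNE1 (-0.16, 0.24) did not pass. PRIM2 was 0.42, GINS1 0.35 and PRIM1 -0.23 after thinning, against 0.24, 0.19 and -0.12 without it.

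**Figure D4:**
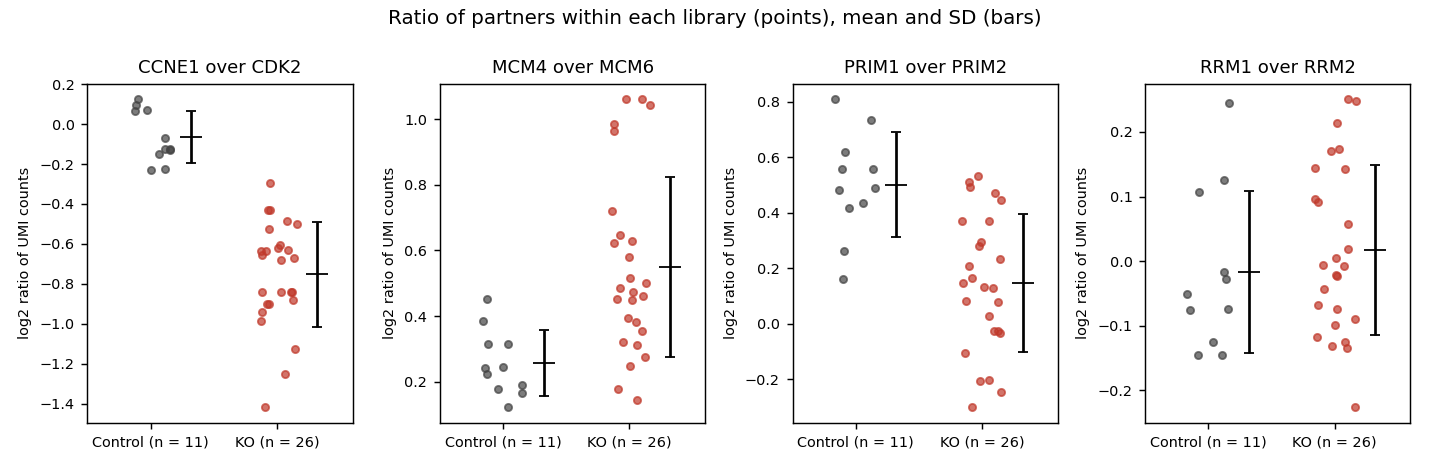
Log2 ratio of UMI counts of 4 partner pairs within each library, control in grey (n = 11) and KO in red (n = 26), with the mean and SD as bars. CCNE1 over CDK2 separates the groups completely, with controls at -0.23 to 0.13 and KO libraries at -1.42 to -0.30, while RRM1 over RRM2 covers much the same range in both. The level of CDK2 alone already separates the groups.

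Among the clamp, clamp loader and single-strand binding genes RFC5 alone passed, of 9. RFC5, a small subunit of the clamp loader (chr12:118013588-118033130, plus strand), ran from 6.64 to 6.99 log2 CPM (median 6.90) in control and from 6.83 to 7.42 (median 7.05) in KO libraries, and 18 KO libraries were above every control. The mean was 6.87 ± 0.11 (SD, n = 11) and 7.08 ± 0.16 (SD, n = 26), a log2 fold change of 0.22 (SE 0.05, edgeR adjusted p = 0.0020). It shares 186 exon bases at its 3′ end with WSB2 on the opposite strand, whose log2 fold change was 0.06 (edgeR adjusted p = 0.40). The other 4 loader subunits had values from -0.13 (RFC3) to 0.02 (RFC2), and RFC1, the large subunit, had 9 KO libraries below and none above the control range at -0.09 (edgeR adjusted p = 0.32). PCNA, the clamp itself, ran from 8.45 to 8.74 (median 8.56) in control and from 8.26 to 9.01 (median 8.69) in KO libraries, with 9 KO libraries above and 4 below the control range and a log2 fold change of 0.10 (SE 0.06, edgeR adjusted p = 0.22). The 3 subunits of RPA had values of -0.03, -0.04 and -0.09 and the ratios among them differed by at most 0.05 between the groups.

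In Okazaki fragment maturation the flap nuclease FEN1 rose by 0.10 on the log2 scale, the smallest difference that passed (SE 0.03, edgeR adjusted p = 0.016), with 11 KO libraries above and none below the control range. It did not pass with no filter on low counts (adjusted p = 0.21). FEN1 shares 49 exon bases on the same strand with FADS2, 4210 bases from its 3′ end. FADS2 had 1155 UMIs over all libraries against 20216 for FEN1, and a log2 fold change of 0.59 (edgeR adjusted p = 2.0e-04). The ligase LIG1 had a log2 fold change of 0.10 (SE 0.06, edgeR adjusted p = 0.21), about the same value, but with a wider spread over KO libraries, 0.19 against 0.07 for FEN1, and did not pass.

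In nucleotide supply thymidylate synthase, TYMS, was the member of 5 that was higher (chr18:657653-673578, plus strand; its promoter window is printed above). It ran from 8.11 to 8.47 log2 CPM (median 8.26) in control and from 8.21 to 8.95 (median 8.46) in KO libraries, with 13 KO libraries above the control range and none below. The mean was 8.28 ± 0.10 (SD, n = 11) and 8.51 ± 0.23 (SD, n = 26), a log2 fold change of 0.26 (SE 0.07, edgeR adjusted p = 0.0039), or 19.3% more. TYMS shares 967 exon bases at its 3′ end with ENOSF1 on the opposite strand, which had 6410 UMIs over all libraries against 32552 for TYMS and a log2 fold change of -0.32 (edgeR adjusted p = 2.0e-04). Whether counting used the strand is not given in the sources used here. Of the 13 KO libraries above the control range for TYMS, 11 were among the 17 above it for MCM4.

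Both subunits of ribonucleotide reductase, the enzyme that makes deoxyribonucleotides, lay almost within the control range. RRM1 ran from 7.89 to 8.12 log2 CPM (median 8.01) in control and from 7.82 to 8.13 (median 8.0) in KO libraries, with a log2 fold change of -0.0010 (SE 0.04, 95% interval -0.07 to 0.07, edgeR adjusted p = 0.99). RRM2 ran from 7.77 to 8.23 (median 8.01) in control and from 7.78 to 8.22 (median 7.96) in KO libraries, and no KO library was outside the control range. Its log2 fold change was -0.03 (SE 0.05, 95% interval -0.12 to 0.06, edgeR adjusted p = 0.66). Thymidine kinase TK1 and the dUTPase DUT had 0.10 and 0.11 and did not pass, with 6 KO libraries above and none below for TK1 and 12 above and 5 below for DUT. The processed copy of DUT with the most UMIs, DUTP6, had 42 over all libraries, against 50164 for DUT.

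On the per-molecule scale of 3′ UMI counts, which does not depend on transcript length, the most abundant members in control libraries were DUT at 8.96, MCM7 at 8.90 and MCM3 at 8.87 log2 CPM. DUT and MCM7, and MCM7 and MCM3, differed by less than their SDs of 0.08, 0.06 and 0.07. PCNA followed at 8.58 ± 0.10 and MCM4 at 8.42 ± 0.09. The ring subunits were unequal in UMI counts, with MCM5 at 6.11 ± 0.11 and MCM2 at 6.98 ± 0.09 well below MCM6 at 8.16 ± 0.06. Capture, mapping and overlap with other genes may differ between genes and were not examined for these levels. The 2 members with the lowest counts were GINS4 at 2.88 ± 0.49 and CCNE2 at 2.31 ± 0.45 (SD, n = 11 for each).

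The genes around this machinery were read from lists drawn by function. Of 37 tested further replication factors 5 were higher and 5 lower, with a median log2 fold change of -0.02. The decreases were led by POLD2 (-0.38), which anchors POLD1 in polymerase delta, RNASEH2C (-0.27) of ribonuclease H2, and the clamp loader factor DSCC1 (-0.20), and the increases by ATAD5 (0.21), which unloads PCNA, DONSON (0.19) and CHTF8 (0.16). Of 21 tested genes of nucleotide synthesis 2 were higher and 7 lower, with a median of -0.04. SAMHD1, which degrades deoxyribonucleotides, was among those higher (0.24, edgeR adjusted p = 0.047). The decreases were led by DCTD (-0.31), IMPDH2 (-0.25) and ATIC (-0.23).

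Of 23 tested genes of G1/S control 5 were higher and 2 lower, with a median of 0.03. Cyclin D3, CCND3, was higher at 1.24 (SE 0.15, edgeR adjusted p = 3.6e-08), and the inhibitors of cyclin-dependent kinases CDKN1A and CDKN1B at 0.81 (SE 0.29, edgeR adjusted p = 0.030) and 0.43 (SE 0.09, edgeR adjusted p = 2.0e-04), while TFDP1 (-0.23), the partner of E2F factors, and E2F3 (-0.21) were lower. Of 33 tested genes of G2 and mitosis 9 were lower and the other 24 did not pass, with a median of -0.05. The decreases were led by the checkpoint kinase BUB1 at -0.38 (SE 0.05, edgeR adjusted p = 4.5e-08), by PTTG1 (-0.30), for securin, and by CCNB1 (-0.24), for cyclin B1. Beside the background of 17.7% higher and 16.2% lower, the 46 members had 21.7% higher and 4.35% lower. The G2 and mitosis list had 0% higher and 27.3% lower, and the nucleotide synthesis list 9.52% higher and 33.3% lower. Further replication factors had 13.5% in each direction, and G1/S control 21.7% higher and 8.70% lower.

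**Figure D5:**
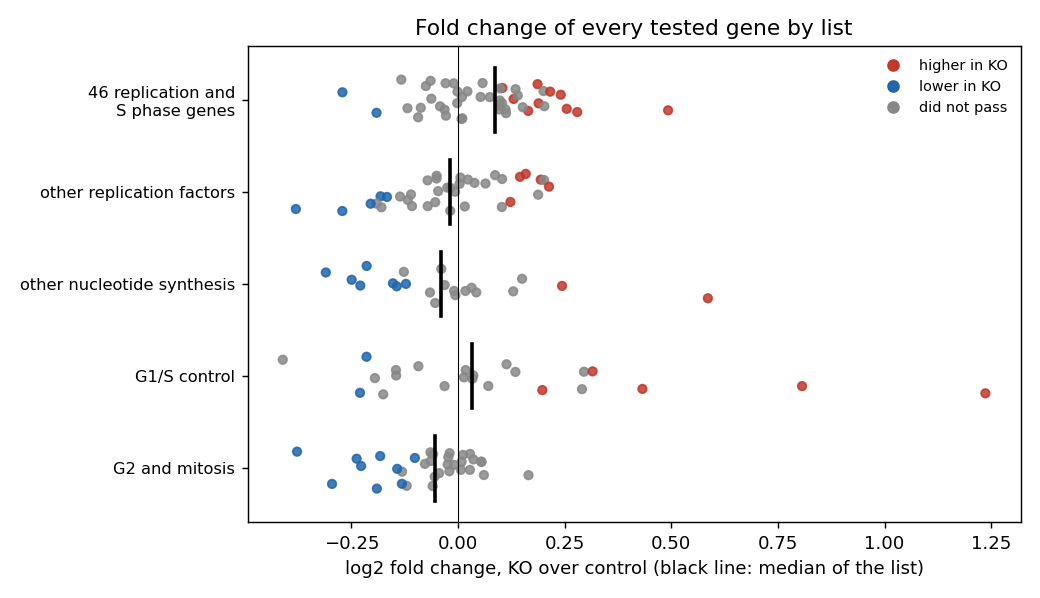
Log2 fold change, KO over control, of every tested gene of the 46 members and of 4 lists of related genes, coloured by whether the gene passed; a black line marks each list's median. The median of the members is 0.09 and that of the G2 and mitosis genes -0.05, and CCND3 at 1.24 is the farthest point.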

How the data were processed

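Bulk SCRB-seq of 26 KO and 11 control K562 libraries was analysed, with RNA from 10000 lysed cells per library. Mapping by the authors was to hg38 with STAR (2.6.0a in the submitters' processing notes), UMIs were counted with zUMIs per gene of an Ensembl annotation of GRCh38, and the authors deposited these UMI counts without normalization. PCR copies share a UMI and were counted as a single molecule. Each column is named by its well barcode, which matched the title of a single sample. Symbols and positions came from GENCODE on GRCh38, and exon overlaps between genes from the same annotation, which may differ slightly from the annotation counted.

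The whole table was fitted by the robust quasi-likelihood method of edgeR 4.0.16 (R 4.3.3), with KO or control as the single term, after TMM scaling and the filter on low counts that edgeR applies by default, and p-values were adjusted by Benjamini-Hochberg over all 10661 genes tested. A gene passed at an adjusted p below 0.05, and was called if its absolute log2 fold change was also above 0.5. Levels per library are log2 CPM with a prior count of 2, errors are SDs over libraries, and the SE of a fold change was derived from its size and the F statistic. Log2 ratios between genes used counts plus 0.5. No pair of libraries within a group, of 380, differed by less than counting noise (chi-square over degrees of freedom at least 1.14), and none was merged. Intervals and counts cover the spread between these libraries, and low counts, such as those of CCNE2, carry the largest counting error.

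The members and the lists of related genes were chosen with earlier results of these data known. All 46 members were named. Full values were given for the 5 largest rises and falls that passed and for fixed examples of each step, and from each other list at most 3 rises and 3 falls that passed. Members and pairs named for their pattern over libraries were chosen after their values were seen. Markers of HL60, HBE1, MS4A1, CDA, NME2 and CDKN2A were not analysed here. A gene that the rule would name is not reported here. Alternatives were DESeq2 1.42.0, limma-voom (limma 3.58.1) with or without quality weights, scaling by RLE or by totals only, every gene kept, genes averaging 10 CPM or more, barcode class as covariate (AT-rich at most 2 G or C of the barcode's bases, mixed 3, GC-rich at least 4), the AT-rich libraries alone, 7 surrogate variables from sva 3.50.0 as covariates, leaving out KO library 18, the shallowest control or each library in turn, and thinning every library to 563235 UMIs.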

Additional observations from a re-analysis of the deposited data

How the results depend on the processing

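CDK2 stayed past the test under all 13 alternatives and all 37 fits that left out a library. The number of members called higher was 1 (CDK2) instead of 0 with library size alone, with barcode class as covariate and among AT-rich barcodes only, and 0 to 1 when each library in turn was left out. With surrogate variables 19 members were higher and 4 lower, and after thinning to the smallest total, where 44 members were tested, 8 were higher and 0 lower. Elsewhere 7 (no filter on low counts) to 15 members were higher and 2 to 3 lower, and 10 to 12 and 2 to 3 when each library in turn was left out. Fewer molecules per library limit the thinned fit by its construction, and the cause of the other shifts was not tested. Over all genes 3606 passed, and 1555 after thinning and 4899 with surrogate variables, with 1720 called with no filter and 1687 with DESeq2 against 1085.

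Changes of sign were seen in 13 members that did not pass, and in CCNE2 when single libraries were left out. MCM5 was 0.000940 with RLE size factors, 0.0311 with library size alone, 0.000316 with a mean of at least 10 CPM, 0.0196 with barcode class, 0.0136 among AT-rich barcodes, 0.00824 without KO library 18 and 0.133 after thinning. RRM1 was 0.00147, 0.0311, 0.00139, 0.0170, 0.0601, 0.00214 and 0.0181 in the same order. MCM6 was 0.0215 with library size alone, 0.00555 with quality weights, 0.00149 among AT-rich barcodes, 0.0161 with surrogate variables and 0.0141 after thinning. With library size alone POLA2 was 0.00416, RPA1 0.00432 and RRM2 0.000918, and among AT-rich barcodes POLA2 was 0.0154, RPA2 0.0404, RPA3 0.0196 and RRM2 0.0423. With no filter CDC45 was -0.00212, GINS3 -0.00115 and RFC4 -0.00355. GINS3 was -0.00597 with barcode class, -0.00997 without KO library 18 and -0.0155 after thinning, where RFC4 was -0.138, LIG1 -0.00235 and E2F2 -0.115. When each library in turn was left out, MCM5 ran from -0.0256 to 0.0283, RRM1 from -0.0104 to 0.0157, GINS3 from -0.0184 to 0.0412, MCM6 from -0.0183 to 0.0110, RFC4 from -0.00851 to 0.0320, CCNE2 from -0.0279 to 0.123 and CDC45 from -0.00406 to 0.0275.

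No paired analysis was possible because the labels give no replicate numbers shared between the groups.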
